A study of Mus musculus with 12 samples.

Results

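The solute carriers that move sugars, amino acids, peptides, monocarboxylates, vitamins, fatty acids, nucleosides and organic ions across membranes were examined in the small intestine of fed and fasted mice. They were taken from the array by name: every probe that is no control and whose gene name in the files of the 12 h arrays is that of a solute carrier of an organic substrate. This gave 51 probes for 42 genes, of 20280 probes tested, which carry 18116 gene or clone names. Grouped by substrate, they were 12 probes for amino acid carriers, 7 for sugar carriers, 6 for carriers of organic anions and cations, 5 for nucleoside carriers, 4 for the taurine carrier, 4 for vitamin carriers, 3 each for fatty acids, nucleotide sugars and monocarboxylates and their relatives, and 2 each for peptides and for the amine and glutamate carriers of vesicles. The Na+/glucose cotransporter Slc5a1, the peptide carrier Slc15a1, the cystine and neutral amino acid carriers Slc3a1, Slc7a9 and Slc6a19, the bile acid carrier Slc10a2 and the nucleoside carrier Slc28a1 were not among the probes found by this rule.

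The mice were male FVB mice of 6 weeks, either fed or deprived of chow for 12, 24 or 72 h, and the study asked how the gut adapts to fasting. Each of the 12 Agilent 2-colour arrays carried Cy3-labelled RNA from a pool of 2 mice, with 3 pools per time point, each of different mice, beside Cy5-labelled RNA of a reference of 6 fed mice. The dyes were not swapped, and the source label of the reference on the array of fed pool 3 names only fed mice 5 and 6, against the pool of 6 given in its labelling protocol. The mice were kept in metabolic cages and were warmed with a lamp from 24 h on. The RNA came from the whole wall of the intestine, so that fewer cells of a type and less RNA per cell cannot be told apart.

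An enterocyte takes up nutrients through carriers of its brush border, which are often coupled to Na+ or protons, and passes them to the blood through other carriers of its basolateral membrane. The same families also feed the cell itself, since enterocytes burn glutamine and glutamate and take amino acids from the blood between meals. Many carriers are known to follow the diet, and the sugar carriers in particular respond to the sugar in the lumen.

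Values are log2 ratios of Cy3 over Cy5 on an array after normalization, so that 0 is the level of the fed reference and 1 is a doubling. A probe was called when the difference between time points had an adjusted p under 0.05 in limma over all probes. Over the members, the median distance from an estimated difference to either end of its 95% confidence interval was 0.43 to 0.44 on the log2 scale, so that smaller changes were mostly not detectable with 3 pools. That interval is not adjusted for the number of probes, so that larger differences could also miss the threshold. An Slc6a6 probe, A_65_P19341, differed by 0.71 at 24 h against fed and was not called (adjusted p 0.071). Levels of different probes were not compared with each other. The arrays of 12 and 24 h were deposited in another format and with brighter Cy5 signals than those of the fed and 72 h pools (median Cy5 intensity 393 to 627 against 124 to 142). For 12 or 24 h against fed, fasting and format therefore cannot be told apart. The same holds for 72 h against 12 or 24 h. The comparisons of 72 h with fed and of 24 h with 12 h lie within 1 format. The reference RNA itself, fitted alone, differed at 4402 probes between 12 h and fed arrays (21.7%) and at 4172 between 24 h and fed (20.6%). Between 72 h and fed, limma called 0 of 20272 reference values, with 837 at an unadjusted p under 0.05. For the times of fasting it called 2775 reference values (13.7%) at 24 h against 12 h, which share a format. The number was 2812 (13.9%) at 72 h against 24 h. At 72 h against 12 h it was 1832 (9.04%).

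Some arrays stood apart from the others of their time point. On that of 12 h pool 3, 9.56% of all probes lay more than 1 log2 unit from the mean of the other 12 h pools, against 4.46% for 12 h pool 1, 2.59% for fed pool 3 and 0.114 to 1.38% for the remaining 9 arrays. The lowest of 66 correlations between arrays over all probes was -0.38, between fed pool 3 and 12 h pool 3, and it was the 1 pair under -0.3. The stated dyes fix the direction of every ratio, and it was kept. Both arrays matter for the carriers, as described below. On all 12 arrays 33 of the 51 probes gave a Cy3 signal well above background, 0 member spots were saturated, and 13 member values were missing because their spots were marked as outliers.

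After 72 h, 5 carrier probes had risen and 1 had fallen against fed. The risers were all 4 probes of Slc6a6 and the probe of Slc38a1, and the faller was Slc2a2. These 6 of 51 probes (11.8%) compare with 10.6% of all probes called in this comparison (4.85% higher and 5.71% lower), so that the carrier probes were called about as often as the array at large. Of the 6, 4 measure 1 gene, Slc6a6. Shares here and below are of probes, and no share of genes is given. At 24 h, 5 rose and 1 fell (6 probes, 11.8%, against 10.1% of all probes, 3.82% higher and 6.3% lower). At 12 h, 2 rose and 1 fell (3 probes, 5.88%, against 10.8%, of which 4.82% higher and 6% lower). Leaving out 1 array moved the count at 72 h to between 4 (without fed pool 3) and 9 (without 12 h pool 3). At 24 h it fell to 1 without fed pool 1, fed pool 2 or any 24 h pool and reached 10 without 12 h pool 3, and at 12 h it ran from 1 (without fed pool 1 or fed pool 3) to 10 (without 12 h pool 1). The share of all probes called in these fits is not given here, so these counts are not read as a result about the carriers. Over the 51 probes, differences from fed had a median of 0.12 (12 h), 0.08 (24 h) and 0.09 (72 h), beside -0.02, 0.02 and 0.01 over all probes. The pools of 72 h lay wholly above or below the fed pools for 18 of 44 carrier probes with a value on all 6 arrays (40.9%), and for 41.1% of all such probes. An F-test over the 4 time points called 13 of the 51 probes, 25.5% against 24.8% of all probes.

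**Figure D1:**
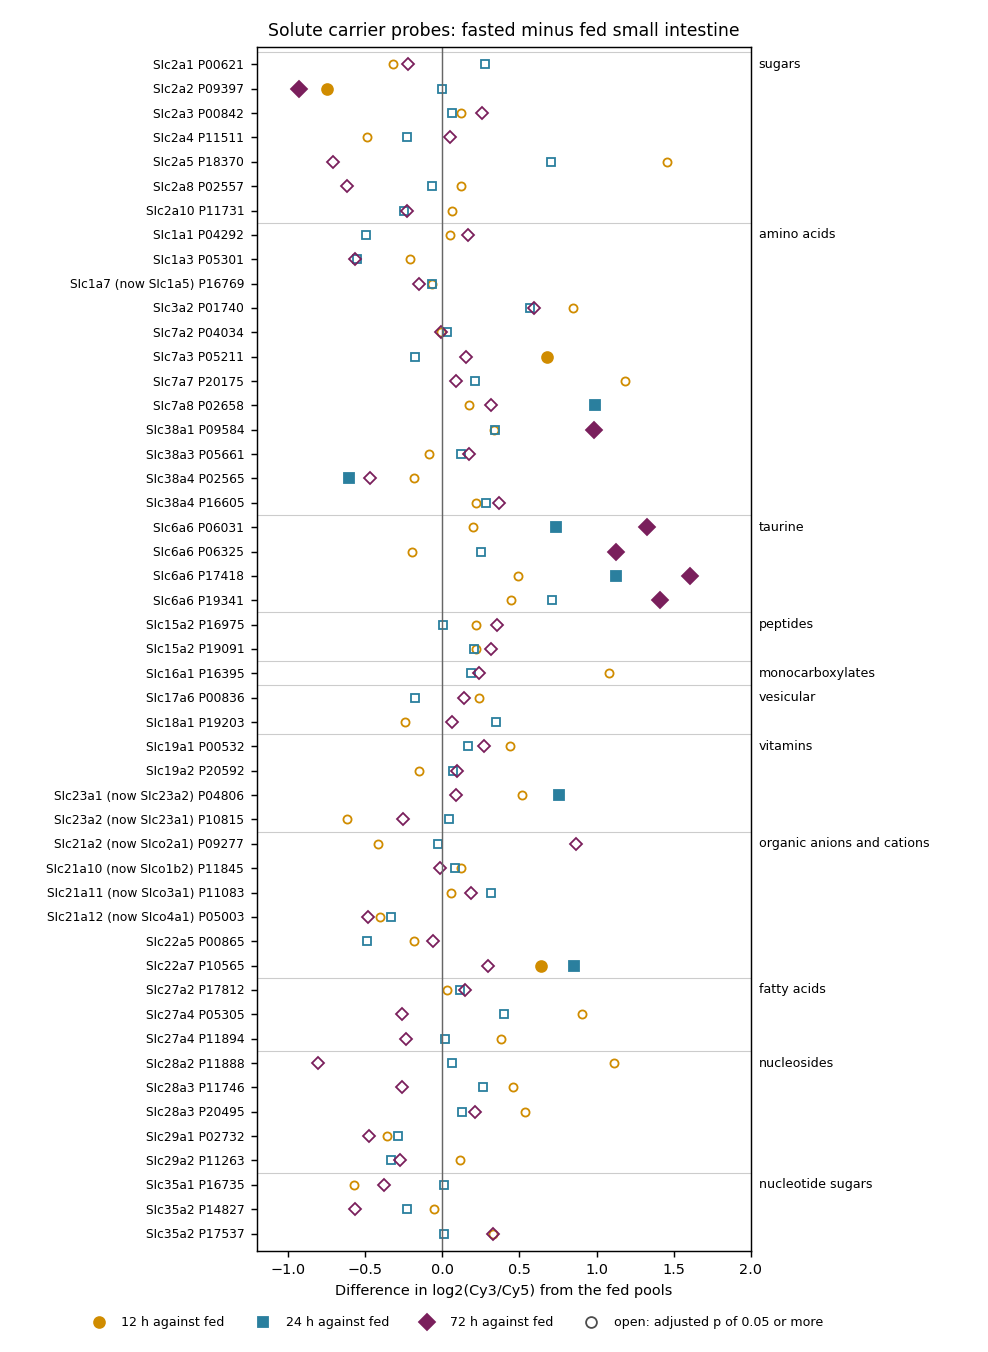
Difference of each fasted time point from fed for 49 of the 51 carrier probes, as log2 ratio (horizontal axis), ordered by substrate; filled points passed an adjusted p under 0.05 and open points did not. The 4 Slc6a6 probes at 72 h lie between 1.12 and 1.61, Slc38a1 lies at 0.98, and most other points lie within 0.5 of 0.

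Slc6a6 encodes the Na+- and Cl--coupled taurine transporter, which concentrates taurine in cells and also serves its uptake from the lumen. The gene lies at chr6:91684048-91759063 in GRCm38.p6, and 4 probes on the array carry its gene number, of which 2 have other names in the files of the fed arrays. No other carrier gene had as many probes, so that its number of probes called is not ranked against those of other genes. With probe A_65_P06031 the 3 fed pools read -0.54, -0.24 and 0.12, the 12 h pools -0.22, -0.13 and 0.29, the 24 h pools 0.44, 0.67 and 0.45, and the 72 h pools 1.19, 1.16 and 0.97. All 72 h pools lay above all other pools, the 24 h pools came next, and the fed and 12 h pools overlapped. With probe A_65_P06325 the values were 0.16, 0.45 and 0.02 in fed pools, 0.13, 0.30 and -0.37 at 12 h, 0.42, 0.49 and 0.47 at 24 h, with 1.44, 1.25 and 1.31 at 72 h. Here the 24 h pools overlapped the fed pools. Probe A_65_P19341 gave -0.50, -0.31 and 0.08 in fed pools, -0.21, -0.01 and 0.83 at 12 h, 0.43, 0.62 and 0.35 at 24 h, with 1.30, 1.14 and 1.07 at 72 h. It followed the order of the first probe, but its 12 h pool 3 lay above the 24 h pools. The fourth probe, A_65_P17418, had 1 fed value, -0.35, since the other 2 spots were outliers. It read -0.25, 0.34 and 0.34 at 12 h, 0.64, 1.03 and 0.68 at 24 h, with 1.42 and 1.10 in the 72 h pools with a value.

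Against fed, Slc6a6 at 72 h was higher by 1.33 (SE 0.191, 2.51-fold, adjusted p 0.00087), 1.12 (SE 0.183, 2.18-fold, adjusted p 0.0017) and 1.41 (SE 0.236, 2.66-fold, adjusted p 0.002) for the 3 probes measured in every pool. For A_65_P17418 the difference was 1.61 (SE 0.311, adjusted p 0.0073), from 2 pools against 1. All 4 calls also passed in the Cy3 channel alone, where the differences were 1.89, 1.26, 1.91 and 1.68. The reference channel of the same probes differed by 0.56, 0.13, 0.50 and 0.07 between the 72 h and the fed arrays, each short of the threshold. At 24 h, A_65_P06031 was 0.74 higher than in fed pools (SE 0.191, adjusted p 0.027) and A_65_P17418 was 1.13 higher (adjusted p 0.034), while A_65_P19341 differed by 0.71 (adjusted p 0.071) and A_65_P06325 by 0.25 (adjusted p 0.4). For A_65_P17418 this rested on the reference, which was lower by 0.91, with a Cy3 difference of 0.22. At 12 h the 4 differences ran from -0.19 to 0.49 and none passed, their adjusted p being 0.23 to 0.52. The 72 h calls held under every setting tried and without any 1 array, with the smallest difference at 0.81, except that A_65_P17418 has no difference from fed when fed pool 3 is left out. The Slc6a6 calls at 24 h for both probes were lost without fed pool 1, fed pool 2 or any of the 24 h pools, with adjusted p up to 0.12 for A_65_P06031 and up to 0.085 for A_65_P17418 in these fits. A_65_P17418 has no value in fed pools 1 and 2, so that leaving them out cannot change its difference. There, only parts of the fit shared over all probes, such as the p adjustment, can change. The 24 h calls of Slc7a8 and Slc38a4 were lost under the same omissions. In Cy3 alone the adjusted p of A_65_P17418 was 0.65.

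Slc38a1, a Na+-coupled carrier of glutamine and other small neutral amino acids (chr15:96571418-96643438), showed a like course with 1 probe. It read -0.07, 0.14 and -0.23 in fed pools, 0.14, 0.51 and 0.19 at 12 h, 0.27, 0.34 and 0.25 at 24 h, with 1.10, 0.74 and 0.93 at 72 h. The 72 h pools were the highest and overlapped none of the others. The 12 h and 24 h pools overlapped each other. The difference of 72 h from fed was 0.98 (SE 0.164, 1.97-fold, adjusted p 0.002), with 1.11 in Cy3 and 0.12 in the reference. At 12 and 24 h it was 0.34 at both times, with adjusted p of 0.19 and 0.2. Over the settings tried and with any 1 array left out, the 72 h difference ran from 0.70 to 1.46 and stayed past the threshold.

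**Figure D2:**
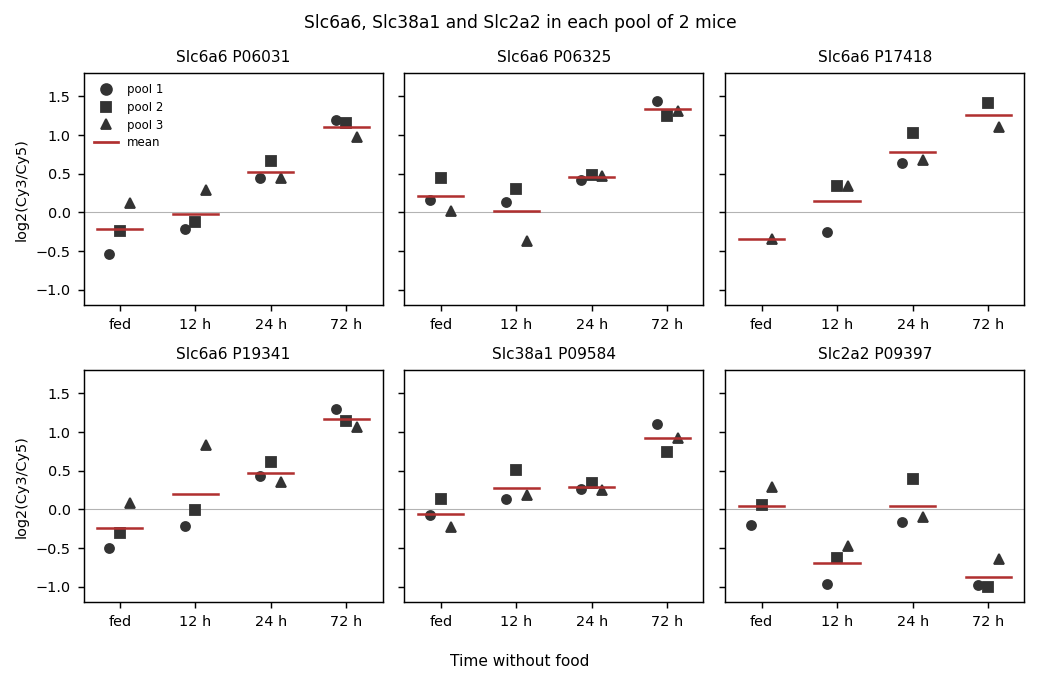
Log2 ratio of Cy3 over the fed reference in each pool of 2 mice, by time of fasting, for Slc6a6, Slc38a1 and Slc2a2; points are pools and bars are means of the pools with a value. The Slc6a6 and Slc38a1 pools of 72 h lie above the other pools, and the Slc2a2 pools lie below the fed pools at 12 h and 72 h but not at 24 h.

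Among the 7 sugar carrier probes, 1 fell at 72 h and 1 at 12 h, both times Slc2a2, and the median difference was -0.23 at 72 h. Slc2a2 encodes the facilitative glucose and fructose carrier of the basolateral membrane, and Slc2a5 the fructose carrier of the brush border. The promoter entries of both, taken from RefSeq (GRCm38.p6, 250 bases before to 50 after the annotated start), are shown because the results on sugars turn on these genes. Capitals mark the motifs searched on both strands, AGGTCA (a nuclear receptor half-site), CCAAT and GGGCGG (a GC box). For Slc2a2 the window is chr3:28697653-28697952 on the + strand, and for Slc2a5 it is chr4:150119094-150119393 on the + strand.
Slc2a2: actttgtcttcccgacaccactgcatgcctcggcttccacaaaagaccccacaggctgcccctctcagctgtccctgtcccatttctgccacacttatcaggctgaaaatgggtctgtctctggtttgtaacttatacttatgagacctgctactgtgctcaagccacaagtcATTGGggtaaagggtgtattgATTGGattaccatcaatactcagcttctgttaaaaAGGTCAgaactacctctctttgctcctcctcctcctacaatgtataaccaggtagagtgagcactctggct
Slc2a5: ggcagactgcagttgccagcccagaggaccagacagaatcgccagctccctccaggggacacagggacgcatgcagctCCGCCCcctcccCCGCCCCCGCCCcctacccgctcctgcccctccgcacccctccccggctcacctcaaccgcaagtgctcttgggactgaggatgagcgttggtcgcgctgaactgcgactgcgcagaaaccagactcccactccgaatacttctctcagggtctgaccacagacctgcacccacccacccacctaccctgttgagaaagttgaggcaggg
The Slc2a2 window held AGGTCA at position -21 and CCAAT on the reverse strand at 2 places, -77 and -56 from the start. The Slc2a5 window held the GC box 3 times on the reverse strand and neither of the other motifs. AGGTCA was found in 16.3% of all 32851 promoter entries and in 15.2% of the 46 entries of carrier genes. CCAAT was found in 37.4% and 30.4%. GGGCGG was found in 35.7% of all entries and in 69.6% of those of the carriers, several of which belong to 1 gene. The entries cover 29 of the 42 genes, without Slc6a6 and Slc38a1.

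Slc2a2 read -0.20, 0.06 and 0.29 in fed pools, -0.97, -0.63 and -0.47 at 12 h, -0.16, 0.40 and -0.10 at 24 h, with -0.98, -1.0 and -0.64 at 72 h. The pools of 12 and 72 h lay below all pools of fed and 24 h mice, which overlapped each other. At 12 h the gene was lower than in fed pools by a log2 difference of -0.74 (SE 0.201, 1.67-fold, adjusted p 0.033). At 72 h the difference was -0.92 (SE 0.201, 1.9-fold, adjusted p 0.0091), of which -0.99 lay in Cy3 and -0.06 in the reference. At 24 h the adjusted p was 0.99. The 72 h call was lost without fed pool 3 (-0.81, adjusted p 0.05) or without 72 h pool 1, where the highest adjusted p was 0.055. The Slc2a2 call at 12 h, with a Cy3 difference of -0.65, did not pass in Cy3 alone (adjusted p 0.11) and was lost without fed pool 2, fed pool 3, 12 h pool 1 or 12 h pool 2.

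Slc2a5 had values of 0.05, 0.34 and -2.22 in fed pools, -0.04, 0.36 and 2.22 at 12 h, 0.05, 0.20 and 0.05 at 24 h, with -1.48, -1.47 and -0.99 at 72 h. The 72 h pools were low together, fed pool 3 was lower than any of them, and 12 h pool 3 was the highest. Against fed the 72 h difference was -0.71 (SE 0.583, adjusted p 0.5), with an interval from -1.95 to 0.54. Without fed pool 3 the Slc2a5 difference was -1.51 (adjusted p 0.089). Other glucose carriers varied less. Slc2a1, a glucose carrier of many cell types, differed by -0.32, 0.28 and -0.22 at 12, 24 and 72 h, none past the threshold. Its Cy3 signal at 24 h was higher by 1.74, and the reference by 1.47, so that little of it was left in the ratio. Slc2a3, Slc2a4 and Slc2a10 differed by at most 0.49 in size at any time. Slc2a8 read -1.24, -0.15 and -0.28 at 72 h against -0.02 to 0.13 in fed pools (difference -0.61, adjusted p 0.1).

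Fed pool 3 and 12 h pool 3 stood apart for several carriers. Over all probes, 2.59% and 9.56% lay more than 1 log2 unit from the other pools, in either direction. In fed pool 3, 5 carriers lay more than 1 log2 unit below the mean of the other fed pools: Slc2a5 (-2.41), the purine nucleoside carrier Slc28a2 (-1.77), Slc3a2 (-1.55), which is the heavy chain shared by several amino acid exchangers, its partner for cationic amino acids Slc7a7 (-1.42), and the lactate and short-chain fatty acid carrier Slc16a1 (-1.01). For all 5, Cy3 moved more than the reference, by -2.23, -1.67, -1.53, -1.41 and -0.94. In 12 h pool 3, 10 carriers lay over 1 log2 unit from the other 12 h pools, 5 higher and 5 lower. Among the 5 lower were Slc2a4 (-1.34), Slc2a3 (-1.21), Slc21a2 (-1.12) and Slc19a2 (-1.04). For 3 of the 5 lower, Cy3 moved more than the reference. The 5 that were higher were Slc28a2 (2.54), Slc16a1 (2.41), Slc2a5 (2.06), a probe of the fatty acid carrier Slc27a4 (1.44) and Slc7a7 (1.21). For these 5 it was the reference channel that moved more, by -2.13, -1.88, -1.94, -1.87 and -1.31. So 4 carriers appear in both sets, low in the Cy3 of fed pool 3 and low in the reference of the array of 12 h pool 3. Over 48 carrier probes, the Cy3 deviation of fed pool 3 and the Cy5 deviation of 12 h pool 3 had a correlation of 0.52, and over 20005 probes one of 0.47. The same correlation with the other arrays' Cy5 was between -0.45 and 0.16 over all probes, apart from fed pool 3's own array, where it was 0.54. Over the carrier probes it was between -0.51 and 0.33 with the other arrays, and 0.29 with fed pool 3's own array. Deviations within a time point depend on each other, since each is taken from the mean of the other pools. These are descriptions over probes that share arrays and depth, and what made these channels alike was not tested.

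**Figure D3:**
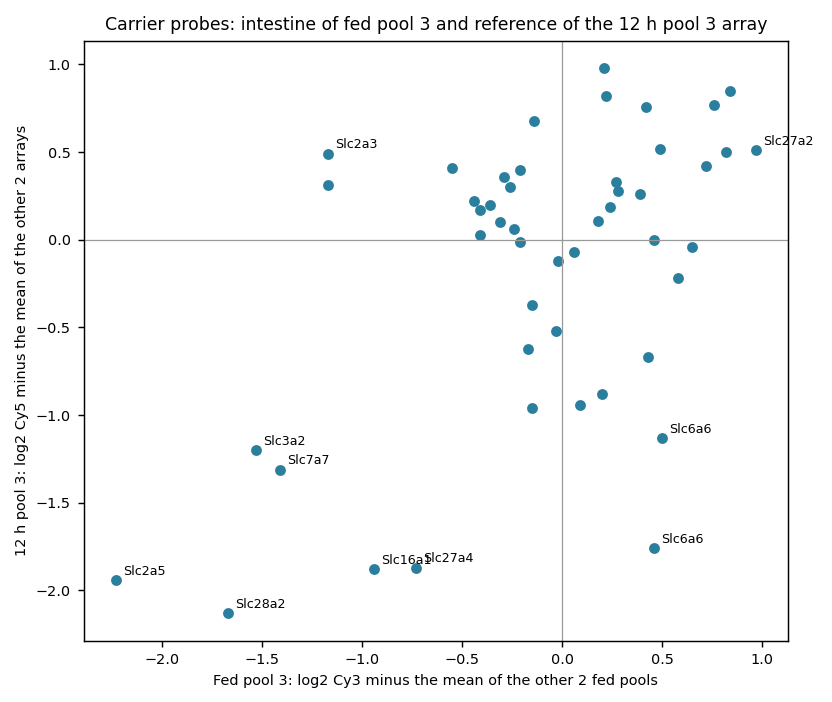
Each point is a carrier probe, with the deviation of fed pool 3 in Cy3 from the mean of the other fed pools (horizontal, log2) and the deviation of the reference on the array of 12 h pool 3 from the other 12 h arrays (vertical, log2). Slc2a5, Slc28a2, Slc7a7 and Slc16a1 lie low on both axes, and the correlation over 48 probes is 0.52.

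These pools widened the spread of the carriers concerned. Slc28a2 read 0.28, 0.52 and -1.37 in fed pools, 0.16, -0.01 and 2.62 at 12 h, -0.07, -0.04 and -0.27 at 24 h, with -1.19 and -0.80 in 2 pools of 72 h. Its difference of 72 h from fed was -0.81 (SE 0.654, adjusted p 0.49), and -1.40 (adjusted p 0.25) without fed pool 3. Slc16a1 read 0.02, 0.11 and -0.94 in fed pools, -0.27, 0.29 and 2.42 at 12 h, -0.02, -0.04 and -0.19 at 24 h, with -0.09, 0.01 and -0.01 at 72 h. Apart from the 2 pools named, its values stayed between -0.27 and 0.29. The Slc16a1 difference of 12 h from fed was 1.08 (adjusted p 0.15), and 0.28 (adjusted p 0.54) without 12 h pool 3. Slc3a2 gave 0.31, 0.52 and -1.13 in fed pools, 0.23, 0.60 and 1.41 at 12 h, 0.31, 0.73 and 0.37 at 24 h, with 0.41, 0.56 and 0.52 at 72 h. Without fed pool 3 the Slc3a2 difference of 72 h from fed was 0.08 in place of 0.60. Slc7a7 had 0.37 and -1.05 in 2 fed pools and -0.30 and -0.19 in 2 pools of 72 h.

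**Figure D4:**
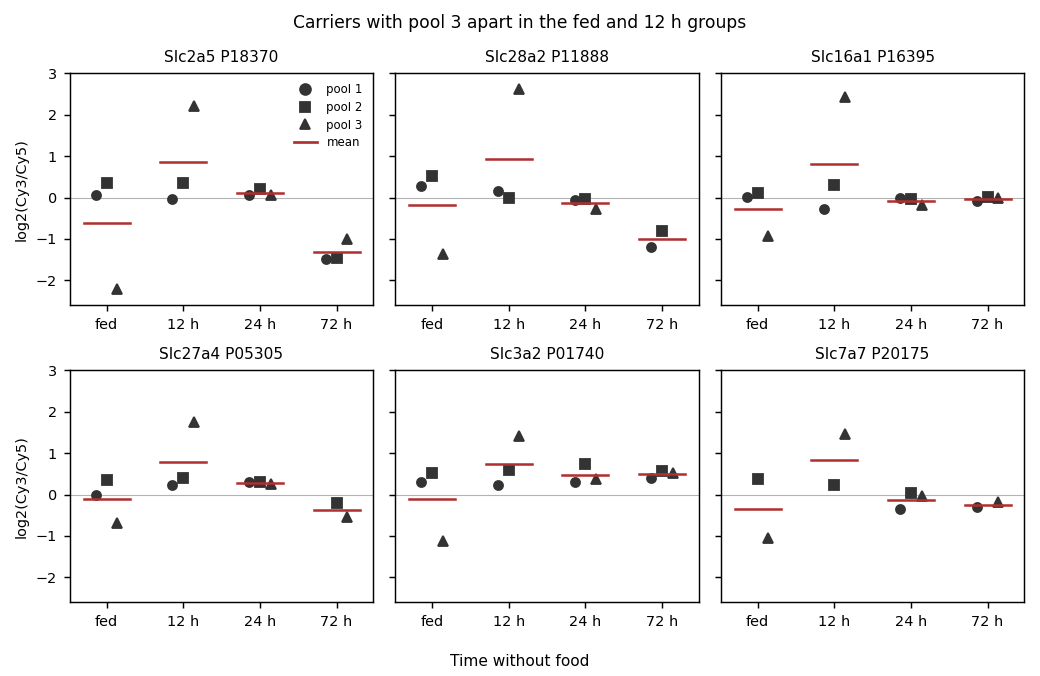
Log2 ratio of Cy3 over the fed reference per pool for Slc2a5, Slc28a2, Slc16a1, a Slc27a4 probe, Slc3a2 and Slc7a7; points are pools of 2 mice and bars are means. Fed pool 3 is the lowest fed value and 12 h pool 3 the highest 12 h value in each panel.

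In the fit of all 12 arrays, the other amino acid carriers called against fed each passed at a single time. Over the 12 amino acid probes, 1 rose at 12 h, 1 rose and 1 fell at 24 h, and 1 rose at 72 h (median differences 0.11, 0.08 and 0.16). Slc7a8 is the light chain of the basolateral exchanger of large neutral amino acids. It read -0.80, -0.30 and 0.32 in fed pools, -0.48, 0.24 and -0.01 at 12 h, 0.58, 0.94 and 0.67 at 24 h, with 0.01, 0.21 and -0.05 at 72 h. The 24 h pools were the highest and overlapped no others. The Slc7a8 difference of 24 h from fed was 0.99 (SE 0.251, 1.99-fold, adjusted p 0.025), made up of 0.55 in Cy3, where it did not pass, and -0.44 in the reference. It was lost without fed pool 1, fed pool 2 or any 24 h pool (adjusted p up to 0.11). Slc7a3, a carrier of arginine and lysine, read -0.43, -0.28 and -0.15 in fed pools, 0.48, 0.21 and 0.48 at 12 h, -0.27, -0.54 and -0.56 at 24 h, with -0.08, -0.32 and 0.00 at 72 h. Only at 12 h did it lie above the fed pools. That difference was 0.68 (SE 0.161, 1.6-fold, adjusted p 0.02), with 0.28 in Cy3 (adjusted p 0.36) and -0.40 in the reference, and it was lost without fed pool 1.

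Slc38a4, a relative of Slc38a1 that carries neutral and cationic amino acids, had 2 probes. With A_65_P02565 it read 0.41, 0.54 and 0.25 in fed pools, 0.35, 0.21 and 0.11 at 12 h, -0.25, -0.19 and -0.15 at 24 h, with -0.04, -0.21 and 0.07 at 72 h. All pools of 24 and 72 h lay below all fed pools. The difference was -0.60 at 24 h (SE 0.149, 1.52-fold, adjusted p 0.023) and -0.47 at 72 h (adjusted p 0.061). This probe was itself dim, with Cy3 well above background on 1 of 3 fed, 2 of 3 24 h and 1 of 3 72 h arrays. The Slc38a4 call at 24 h was lost without fed pool 1, fed pool 2 or any 24 h pool (adjusted p up to 0.091). It was also lost in Cy3 alone and with median centring. The second probe, A_65_P16605, was not well above background in any fed pool and differed by 0.28 at 24 h (adjusted p 0.43), so that the probes did not show the same direction. The carriers of acidic amino acids were Slc1a1, the high-affinity glutamate carrier of the brush border, and Slc1a3. Slc1a1 read 0.09, 0.13 and 0.37 in fed pools and 0.22, 0.40 and 0.47 at 72 h (difference 0.17, adjusted p 0.65), and at 24 h it differed from fed by -0.49 (adjusted p 0.12). Slc1a3 differed by -0.55 at 24 h (adjusted p 0.067) and -0.56 at 72 h (adjusted p 0.062), and its pools of both times lay below the fed pools. The gene listed as Slc1a7, now Slc1a5, which exchanges glutamine with other neutral amino acids, differed by -0.07, -0.07 and -0.15 at 12, 24 and 72 h. Slc7a2 differed by at most 0.03 in size from fed at each time, with an interval at 72 h from -0.38 to 0.36.

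Of the carriers of vitamins and organic ions, 2 passed against fed. The gene listed as Slc23a1, now Slc23a2, encodes an ascorbate carrier found in most tissues. It read -0.12, -0.10 and 0.07 in fed pools, 0.08, 0.24 and 1.09 at 12 h, 0.95, 0.56 and 0.63 at 24 h, with 0.14, -0.08 and 0.06 at 72 h. The 24 h pools were above all fed and 72 h pools, and the 72 h pools overlapped the fed pools. The difference at 24 h was 0.76 (SE 0.223, 1.69-fold, adjusted p 0.045), with 0.83 in Cy3 and 0.07 in the reference. The Slc23a1 call sat near the threshold and was lost without any 1 array of the fed, 24 h or 72 h pools (adjusted p up to 0.16). Slc22a7, an organic anion carrier, was not well above background in any fed pool, so that no fold is given. Its ratios were -0.07, -0.19 and -0.51 in fed pools, 0.23, 0.36 and 0.55 at 12 h, 0.97, 0.41 and 0.41 at 24 h, with 0.23, 0.06 and -0.16 at 72 h. The ratios of 12 and 24 h lay above those of fed pools, with adjusted p of 0.048 and 0.016. Under another scaling, with loess, its mean log2 Cy3 level was lower at 12 h (6.45) and 24 h (6.513) than in fed pools (6.823). In Cy3 alone neither Slc22a7 difference passed (0.28 and 0.61), and the 12 h call held only without 12 h pool 1 or 24 h pool 1 among the 12 fits that each left out 1 array. At 24 h it was lost without fed pool 3 or 24 h pool 1, with adjusted p up to 0.07.

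The remaining vitamin and ion carriers did not pass against fed. The gene listed as Slc23a2, now Slc23a1, the ascorbate carrier of absorptive epithelia, read -0.30, -0.19 and -0.35 in fed pools and -1.02, -1.10 and -0.57 at 12 h (difference -0.62, adjusted p 0.063). Slc19a1, the reduced folate carrier, differed by 0.44 at 12 h (adjusted p 0.17) and 0.27 at 72 h. The carnitine carrier Slc22a5 differed by -0.48 at 24 h (adjusted p 0.083) and -0.06 at 72 h (adjusted p 0.87), and its 24 h pools lay below the fed pools. The gene listed as Slc21a2, now Slco2a1, encodes a prostaglandin carrier. It read 0.45 and -0.17 in 2 fed pools, 0.12, 0.06 and -1.02 at 12 h, 0.07, -0.02 and 0.29 at 24 h, with 1.09, 0.89 and 1.04 at 72 h. Its 72 h pools were the highest, and the difference from fed was 0.87 (SE 0.301, adjusted p 0.085). Without 12 h pool 3, which enters the shared estimate of spread, the Slc21a2 adjusted p was 0.0066.

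Fatty acid, nucleoside, peptide and nucleotide sugar carriers showed no call against fed in limma, while 4 of these 13 probes had an unadjusted p under 0.05 at 12 h, none at 24 h and 2 at 72 h. The fatty acid carrier Slc27a4 was measured by 2 probes. With A_65_P05305 it read -0.01, 0.36 and -0.69 in fed pools and -0.20 and -0.55 in 2 pools of 72 h (difference -0.26, adjusted p 0.73), and with A_65_P11894 the difference was -0.24. Slc29a1, the equilibrative nucleoside carrier, read 0.11, 0.17 and 0.78 in fed pools and -0.11, -0.17 and -0.08 at 72 h, below all fed pools (difference -0.47, adjusted p 0.11). For the peptide carrier Slc15a2, both probes lay above the fed pools at 72 h, by 0.36 and 0.32 (adjusted p 0.23 and 0.3), and A_65_P16975 was dim in all fed pools. The 2 probes of Slc35a2, the UDP-galactose carrier of the Golgi, went in opposite directions at 72 h, with -0.56 (adjusted p 0.089) and 0.33 (adjusted p 0.38). Further carriers were Slc17a6, Slc19a2, Slc27a2, Slc29a2, Slc35a1, Slc38a3 and the genes listed as Slc21a10 and Slc21a11, now Slco1b2 and Slco3a1, and they differed from fed by -0.57 (Slc35a1 at 12 h, adjusted p 0.065) to 0.32 (Slc21a11 at 24 h, adjusted p 0.23). A probe of Slc28a3, A_65_P20495, was dim in all fed pools. In all, 7 genes had more than 1 probe, and Slc6a6 was the 1 gene for which several probes passed.

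The time points of fasting were also compared with each other. For 72 h against 24 h or 12 h, the length of fasting and the file format cannot be told apart. From 24 to 72 h, 3 carrier probes rose and 1 fell (4 of 51, 7.84%, against 10.5% of all probes, 5.88% higher and 4.67% lower): A_65_P06325 of Slc6a6 by 0.88 (adjusted p 0.0091), Slc38a1 by 0.64 (adjusted p 0.025), Slc1a1 by 0.66 (adjusted p 0.045) and Slc2a2, which fell by 0.92 (adjusted p 0.012). All 4 differences passed in Cy3 alone too. Slc1a1 read -0.35, 0.01 and -0.55 at 24 h against 0.22, 0.40 and 0.47 at 72 h. Each of the 4 calls was lost without 72 h pool 1, which left 0 calls. The call of Slc2a2 was also lost without 24 h pool 2, that of Slc38a1 without any 24 h pool or 72 h pool 3, and that of Slc1a1 without fed pool 1, fed pool 2, 24 h pool 1, 24 h pool 3 or any 72 h pool. From 12 to 72 h, 6 probes rose and 2 fell (8 of 51, 15.7%, against 10.6% of all probes, 5.82% higher and 4.75% lower). Of the 6 that rose, 4 were the probes of Slc6a6, by 0.97 to 1.32, and Slc38a1 rose by 0.64 (adjusted p 0.023). Slc21a2 and the fallers are outside the rule for named genes and were chosen after their values were seen, except for Slc2a5. Slc21a2 rose by 1.28 (adjusted p 0.01), of which the Cy3 difference was 1.57. Slc2a5 fell by 2.16 (SE 0.583, adjusted p 0.03), and by 1.47 (adjusted p 0.086) without 12 h pool 3. A Slc28a3 probe, A_65_P11746, fell by 0.72 (adjusted p 0.035), with a Cy3 difference of -0.17 and a reference difference of 0.56. The calls of A_65_P06031 and A_65_P06325 of Slc6a6 held in every fit without 1 array. A_65_P17418 was lost without 72 h pool 2, A_65_P19341 without 12 h pool 2 or any 72 h pool, Slc38a1 without 72 h pool 1 or 72 h pool 3, Slc21a2 without 72 h pool 1, Slc2a5 also without any 72 h pool, and Slc28a3 without 12 h pool 3, fed pool 1 or any 72 h pool.

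From 12 to 24 h, Slc7a3 fell and Slc18a1, the monoamine carrier of endocrine vesicles, rose (2 of 51, 3.92%, against 2.9% of all probes, 1.23% higher and 1.67% lower). Slc7a3 fell by 0.85 (SE 0.161, 1.8-fold, adjusted p 0.014), with the pools of 12 h at 0.21 to 0.48 and those of 24 h at -0.56 to -0.27. Slc18a1, also chosen after its values were seen, rose by 0.59 (adjusted p 0.042), with 0.01 in Cy3 and -0.58 in the reference. The call of Slc7a3 was lost without 24 h pool 2 or 24 h pool 3, and that of Slc18a1 held only without fed pool 3 or 12 h pool 3. Fitted on these 6 arrays alone, limma called 0 of 51 carrier probes and 0.108% of all probes, with 11 carrier probes at an unadjusted p under 0.05. The comparison of 72 h with fed within its own 6 arrays called 10 carrier probes (19.6%, against 18.8% of all probes). To the 6 above it added the gene listed as Slc21a2 (0.87, adjusted p 0.02), Slc1a3 (-0.56, adjusted p 0.035), the gene listed as Slc21a12, now Slco4a1 (-0.48, adjusted p 0.036), and Slc38a4 with A_65_P02565 (-0.47, adjusted p 0.041).

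**Figure D5:**
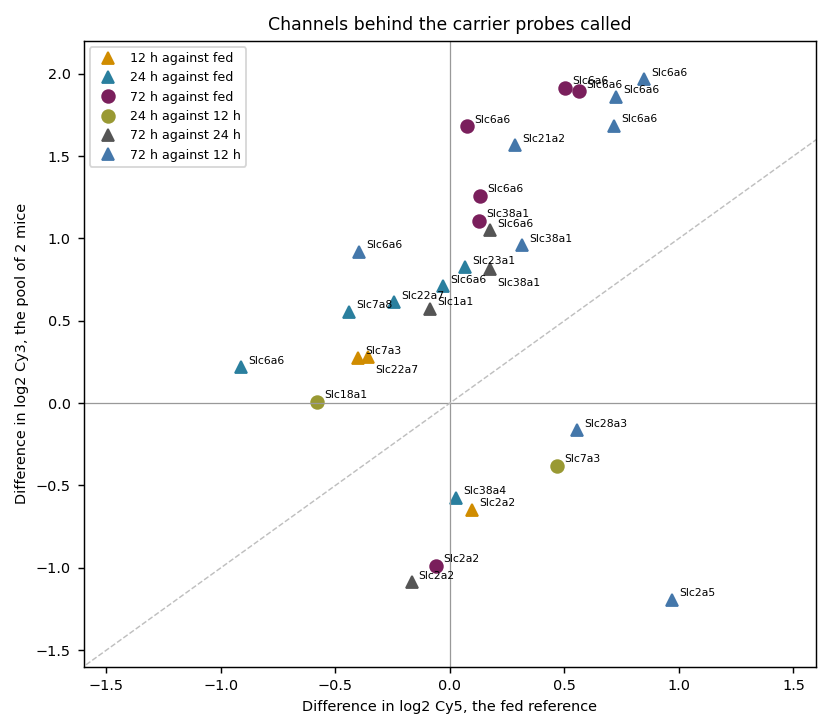
Change of the Cy5 reference (horizontal, log2) and of the Cy3 channel (vertical, log2), with equal changes on the dashed line, for the 29 called pairs of a carrier probe and a comparison; circles are comparisons within 1 file format and triangles those across formats. The 6 calls of 72 h against fed all have a larger change in Cy3 than in the reference, while for both calls of 24 h against 12 h the reference moved more.

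The channels behind the calls differed by comparison. At 72 h against fed, 6 of 6 calls passed in Cy3 alone with the same direction. The number was 2 of 6 at 24 h against fed, 0 of 3 at 12 h against fed, where all 3 kept the direction, and 0 of 2 at 24 h against 12 h. Fitted alone against fed, Cy3 called 7 carrier probes for 12 h, 8 for 24 h and 6 for 72 h, beside 14.8%, 24.6% and 8.44% of all probes. Between times of fasting it called 4 from 12 to 24 h, 15 from 24 to 72 h and 10 from 12 to 72 h, beside 8.23%, 16.7% and 18% of all probes. Among the calls of 12 h against fed the reference had moved more than Cy3 for 2 of 3.

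Beside the carriers, genes of the same pathway were looked at in lists chosen for their roles. Of the list of regulators of carrier genes, which also holds the enzyme gene Asns, 11 of 24 names were measured. At 72 h 2 were higher and 1 lower than in fed pools. Sgk, a kinase that is known to raise the activity of several carriers at the membrane, was higher by 1.76 (3.38-fold, adjusted p 9.1e-05), and the transcription factor Foxo1 by 0.85 (adjusted p 0.031). Pdzk1, a scaffold protein of the brush border, was lower by 1.83-fold (adjusted p 0.0068). At 24 h Sgk, Foxo1 and the nuclear receptor Ppara were higher (1.21, 0.97 and 0.90). At 12 h Ppara and Asns, the asparagine synthetase, were higher (1.01 and 1.64) and Pdzk1 was lower (-0.61), with Cy3 differences of -0.27, 1.12 and -0.35, of which that of Asns passed. Of the brush-border hydrolases, 5 of 21 names were measured, with the meprin subunit Mep1a higher at 72 h (0.85) and the dipeptidyl peptidase Dpp4 lower (-0.66), and at 12 h Anpep (3.44) and Mep1a (0.66) higher and Dpp4 lower (-0.64). In Cy3 alone these 3 differed by 1.27, 0.64 and 0.04, none past the threshold. Of the genes that handle absorbed sugar and fat inside the cell, 13 of 28 names were measured, with the fatty acid receptor Cd36 higher at 72 h (1.28, adjusted p 0.0019) and the acyl-CoA synthetase Facl5 lower (-0.83), and at 12 h the aldolase Aldo2 (-0.79) and the acyltransferase Dgat2 (-1.61) lower, with Cy3 differences of -0.08 and -1.69, of which that of Dgat2 passed. At 24 h limma called 0 of these hydrolases and 0 of these handling genes, with 2 of each at an unadjusted p under 0.05.

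Markers of the cells of the gut wall were measured on the same arrays. Of 6 enterocyte markers, 1 was called lower at 72 h, the keratin Krt2-8 (-0.72). The differences of 3 of the 6 were positive, and their median was 0.04. Their summed Cy3 level was 53838 to 84621 in fed pools and 44856 to 52542 at 72 h. Sums here are of unlogged signals, so that they mostly follow the brightest markers of a list. Of 6 smooth muscle markers, Myh11 and Des were higher at 72 h, and the sum went from 4684 to 6099 in fed pools to 6592 to 7306. Of 5 immune cell markers 4 were lower at 72 h, with the immunoglobulin genes Igj at -3.19, Igk-V at -1.26 and Igh-6 at -0.99 and the leukocyte antigen Ptprc at -0.69, and the sum went from 3394 to 4851 to 983 to 1181. None of these markers was dim on every array of a time point. At 12 h, the enterocyte markers Krt1-19 and Cdh1, the smooth muscle markers Acta2, Actg2, Des and Smtn and the immune marker Igk-V were higher than in fed pools, and at 24 h Des and Smtn were higher and Igj was lower. In Cy3 alone at 12 h, Actg2 (0.68) and Smtn (0.54) passed, while Krt1-19 differed by 0.47 against 3.56 in the ratio, Cdh1 by 0.36 against 1.43 and Igk-V by 0.62 against 1.72. Over all these lists, 4 of 15 calls at 12 h against fed passed in Cy3 alone, 3 of 6 at 24 h and 9 of 15 at 72 h, and at 12 h Cy3 had the opposite sign for 2, Dpp4 and Ppara. Of 3 secretory cell markers limma called 0 against fed at any time, with 1 at an unadjusted p under 0.05 at 72 h. Of 4 markers of pancreas, fat, liver and blood, Alb1 was higher at 72 h (1.28). The part of these shifts in the carriers' differences was not tested.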

How the data were processed

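Small intestine RNA of 12 pools of 2 mice was measured on 2-colour arrays. The authors deposited scanner files with uncorrected median intensities of every spot and its background in both channels. They also deposited log10 ratios, in the scanner files and, with opposite sign, in a table of values; in these, some decimal points had moved and were put back where their size allowed. The study's own analysis of variance was not repeated. Here intensities were corrected with normexp (offset 50), the 24 channels were quantile normalized together, and 1075 controls, 91 unnamed spots and outlier spots were left out of each array's 21446. Averaging the spots of each probe gave 20280 probes. Their log2(Cy3/Cy5) was fitted by limma (3.58.1, R 4.3.3, version 1.17.8 of data.table) with 1 mean per time point and all 12 arrays, with Benjamini-Hochberg adjustment over all probes. The Cy5 channel was fitted alone as a control. Scripts were tested on simulated data, and plots were drawn with matplotlib 3.10.9 under Python 3.11.15.

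The members and the companion lists were chosen with earlier results of these data known. Carriers are named where they passed against fed or belong to the classical intestinal carriers. All 51 probes were matched by gene number to GRCm38.p6, and 7 genes have another symbol today. Alternatives were loess, median centring, no background subtraction, the deposited log ratios, Cy3 alone, filters, smaller fits, the replicate number as a block, the methods' thresholds, and leaving out each array. Array number and signal over background (Cy5 1.65 to 2.12 times) limit precision. A carrier is counted among the probes but is not reported here by name.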

Additional observations from a re-analysis of the deposited data

Results flagged for a closer look

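Differences between times of fasting that passed the test were looked at again, as differences in the distance from fed at both times. Between 12 and 24 h these were Slc7a3 (-0.85 on the log2 scale, 24 h minus 12 h) and Slc18a1 (0.59, with 0.01 in Cy3 and -0.58 in the reference), and neither passed in Cy3 alone or on the 6 arrays of these times alone. Between 24 and 72 h they were Slc1a1 (0.66), Slc2a2 (-0.92), Slc6a6 with A_65_P06325 (0.88) and Slc38a1 (0.64). Between 12 and 72 h they were Slc2a5 (-2.16), the 4 Slc6a6 probes A_65_P06031 (1.13), A_65_P06325 (1.32), A_65_P17418 (1.12) and A_65_P19341 (0.97), Slc21a2 (1.28), Slc28a3 with A_65_P11746 (-0.72) and Slc38a1 (0.64). The 24 h and 12 h arrays share a file format, while the 72 h arrays have the other one. For the differences that involve 72 h, the length of fasting and the format cannot be told apart.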

How the results depend on the processing

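Of the 29 calls of a carrier probe in a comparison, 0 turned direction under any setting. Keeping outlier spots left 28, loess 26, the deposited log ratios 24, no background subtraction 19, Cy3 alone 18, fits on only the arrays compared 18 and median centring 17. Filtering on probes well above background left all 29. These include the calls of Slc22a7, whose probe was not well above background in any fed pool. That filter thus did not require signal in both groups compared and is no check on it. For 12 h, 24 h and 72 h against fed, 24 h against 12 h, 72 h against 24 h and 72 h against 12 h, the counts of called carrier probes were 3, 6, 6, 2, 4 and 8. They became 1, 10, 11, 1, 7 and 9 with loess, 5, 6, 10, 0, 3 and 5 with median centring, and 1, 6, 6, 0, 2 and 5 without background subtraction. They were 1, 10, 10, 0, 8 and 7 with the deposited log ratios, of the scanner files and of the value table alike, 7, 8, 6, 4, 15 and 10 in Cy3 alone, and 0, 8, 10, 0, 14 and 2 on only the arrays compared, which for 72 h against fed (10) and 24 h against 12 h (0) is the shared file format. At the methods' thresholds (unadjusted p under 0.01 and 1.4-fold) they were 6, 8, 7, 7, 8 and 11. Leaving out 1 array gave 1 to 10, 1 to 10, 4 to 9, 0 to 5, 0 to 11 and 3 to 15, and 8 to 21 for the 13 probes past the F-test. Over all probes the calls were 2195, 2051, 2140, 589, 2138 and 2143. They became 2297, 3997, 3388, 452, 3019 and 2174 with loess. With median centring they became 3035, 3898, 2835, 202, 1257 and 662. At the methods' thresholds 13.9%, 13.2%, 13%, 8.23%, 13.5% and 13.6% of all probes passed. Carrier counts without a figure over all probes are not read as a result about the carriers. The cause of these moves was not tested.

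With the replicate number as a block the carrier counts were 2, 5, 6, 1, 3 and 8, and 10 past the F-test. Same-numbered pools are of different mice, and their deviations correlated at -0.30 to 0.13 over 18 pairs, 16 of them at or below 0.1, so that the numbers do not pair the pools. The share of calls that were higher, over all probes, moved with the scaling, from 37.7% to 48.1% at 24 h and from 45.9% to 32.2% at 72 h against fed with median centring, from 42.4% to 11.4% (26.5% with loess) at 24 h against 12 h, and from 55.1% to 65.3% at 72 h against 12 h. The slide and scan date as a block were not run, since they were not given in the sources used here.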
